A study of Rattus norvegicus with 6 samples.

Results

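The intermediate filament genes and nuclear lamin genes of vascular smooth muscle (VSM) cells were followed with age in cultures from soleus feed arteries (SFA), the small arteries that supply the soleus muscle of the hindlimb. The members were chosen by gene symbol from a list of 9 names, namely Des, Vim, Synm, Nes, Krt8, Krt18, Lmna, Lmnb1 and Lmnb2. Of these, 8 were measured among the 14475 genes of the count table, and Krt18 was not analysed here. The VSM cells came from young (4 months, n = 3 rats) and old (24 months, n = 3 rats) male Fischer 344 rats and were grown in medium with fetal bovine serum before polyA RNA was sequenced, with 1 library per rat. No other treatment or genotype separated the groups, and the passage of the cultures is not given in the sources used here. Since all cells had been cultured, the values describe VSM cells in culture and not the artery wall.

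Intermediate filaments are rope-like polymers that give a cell its resistance to deformation. In smooth muscle, desmin and vimentin form the cytoplasmic network, synemin and nestin are long partners that join it only by co-assembly with them, and linker proteins tie it to the cell membrane, dense bodies and nucleus. Keratins of simple epithelia form filaments from an acidic and a basic chain in pairs. The lamins line the inside of the nuclear envelope, where lamins A and C come from Lmna and the B-type lamins from Lmnb1 and Lmnb2. A-type lamins are known to vary with tissue stiffness, and loss of lamin B1 is a known mark of senescence, a lasting arrest of cell division. Nestin is best known from dividing progenitor cells and is also made by smooth muscle cells.

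Total counts per library were between 44235674 and 59700887, and values are given as CPM, counts scaled to a common library size, with TMM normalization for library composition. Even numbers made up 68.7% to 71.1% of all gene counts from 1 to 19, which is more than single reads would give, so the error of low counts may exceed what their size implies. Old was compared with young by the quasi-likelihood test of edgeR over all genes, and a gene was called when its Benjamini-Hochberg adjusted p was below 0.05 and its log2 fold change was 1 or more in size. In edgeR 0 of the 8 members were called, as were 0.00691% of all genes. At an unadjusted p under 0.05 there were 2 members, Nes and Lmnb2, against 22.6% of all genes, and both were lower in old, as were 11.5% of all genes. The DESeq2 Wald test called 1 member, Nes, against 5.56% of all genes and 3.31% counting only lower genes, and limma-voom called 0 members and 0% of genes. At an unadjusted p under 0.05 limma-voom gave 3 members, Nes, Lmnb1 and Lmnb2, against 23.1% of all genes, of which 12.6% were lower and 10.5% higher. Without old replicate 1, edgeR called 3 members, Nes, Lmnb1 and Lmnb2, all lower in old, where 5.06% of all genes were called and 3.47% were called lower. In old replicate 1 Lmnb1, Lmnb2 and Nes were higher than in the other old libraries. A fall in the RNA of each cell and a smaller share of cells that express a gene cannot be told apart in these bulk samples.

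**Figure D1:**
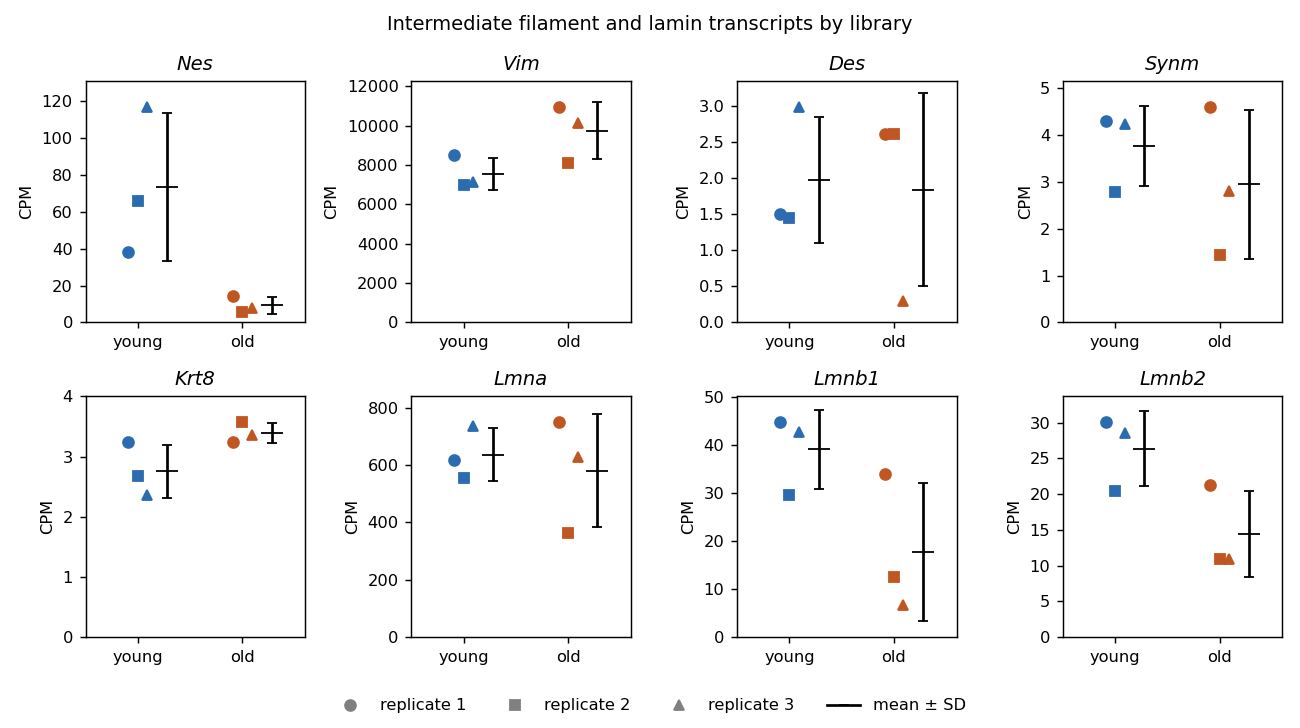
CPM of the 8 measured members in each library, with young replicates in blue, old replicates in orange and the mean ± SD of 3 libraries as a black bar. Nes lies between 38.0 and 117 CPM in young and between 5.58 and 14.4 CPM in old, and Lmnb1 and Lmnb2 are low in old replicates 2 and 3 but not in old replicate 1.

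Nestin had the largest difference of the members. Nes (ENSRNOG00000018681) was at 38.0, 65.8 and 117 CPM in young replicates 1, 2 and 3 and at 14.4, 5.58 and 7.95 CPM in old replicates 1, 2 and 3. Each old library was below each young library, as for 14.7% of all genes, and within both groups the highest library was far above the lowest. The means were 73.6 ± 40.1 CPM in young and 9.32 ± 4.58 CPM in old (mean ± SD, n = 3 each), so that Nes was 7.90-fold lower in old. On the log2 scale, old differed from young by -2.98 (standard error, SE, 0.53, 95% interval -4.25 to -1.71, unadjusted p = 0.00104, edgeR adjusted p = 0.0644), which missed the threshold. DESeq2 gave an adjusted p of 1.30e-07 and limma-voom 0.0713. Leaving out 1 library at a time moved the log2 fold change between -3.44, without old replicate 1, and -2.48, without young replicate 3. With old replicate 1 omitted, edgeR gave an adjusted p of 0.0330. Among 11428 other genes, those with log2 CPM profiles over the 6 libraries most like Nes were Diras2, Flt1 and Nkain4, at a root mean square difference of 0.23, 0.26 and 0.28 on the log2 scale.

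The start of Nes is shown because Nes had the largest difference, as 250 bases upstream of the RefSeq transcription start at chr2:175736338-175736587 on the plus strand of assembly GRCr8, read 5′ to 3′. Capitals mark the GC box GGGCGG or its reverse complement, which occurred 2 times in Nes and in 30.5% of 33469 RefSeq promoter windows of the same length. A CCAAT box, the motif TTTGAA and a CArG box, searched on both strands, had no match in this window.
Nes: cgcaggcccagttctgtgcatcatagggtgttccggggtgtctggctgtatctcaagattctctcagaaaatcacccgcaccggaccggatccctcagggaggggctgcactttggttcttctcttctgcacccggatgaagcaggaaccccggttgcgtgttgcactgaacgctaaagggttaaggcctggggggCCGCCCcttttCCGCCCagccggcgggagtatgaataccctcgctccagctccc

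Vimentin, the main intermediate filament protein of mesenchymal cells, was abundant in every library. Vim (ENSRNOG00000018087) was at 8497, 6997 and 7120 CPM in young replicates 1, 2 and 3 and at 10953, 8124 and 10141 CPM in old replicates 1, 2 and 3. Its counts were 0.682% to 0.867% of all counts of a library in young and 0.841% to 1.08% in old. Old replicates 1 and 3 were above all young libraries, whereas old replicate 2 lay within the young range, so the groups overlapped. The log2 fold change was 0.37 (SE 0.22, 95% interval -0.16 to 0.90, edgeR adjusted p = 0.349), and it stayed between 0.28 and 0.48 when libraries were omitted singly. The interval includes no difference. Vim varied about as much as the median gene, with a coefficient of variation of 11.05% in young and 15.0% in old, compared with medians of 11.8% and 16.8% over all genes.

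Desmin, the intermediate filament protein of contractile muscle, had low counts in the VSM cultures of both ages. Des (ENSRNOG00000019810) had 68, 87 and 147 counts in young replicates 1, 2 and 3 and 130, 136 and 16 counts in old replicates 1, 2 and 3. These equal 1.51, 1.45 and 2.99 CPM in young and 2.61, 2.62 and 0.299 CPM in old. Old replicate 3 was far below the other 5 libraries, and the remaining old libraries lay inside the young range. The log2 fold change of -0.11 had a wide interval (SE 0.76, 95% interval -1.93 to 1.72, edgeR adjusted p = 0.943). It was 0.40 without old replicate 3 and 0.32 without young replicate 3, so the direction for Des rests on single libraries. The coefficient of variation of Des was 44.2% in young and 72.6% in old. As other defining genes of smooth muscle, 8 markers were summed in the same libraries (Acta2, Myh11, Tagln, Cnn1, Smtn, Lmod1, Myocd and Synpo2). Their summed level was 11209 to 20996 CPM in young and 3447 to 5562 CPM in old, most of it from Acta2 and Tagln. The sum does not show that each marker was well detected. Synpo2 was low as well, with 151, 242 and 211 counts in the young and 126, 83 and 158 counts in the old libraries.

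Synemin anchors the desmin and vimentin network to proteins of the membrane. Synm (ENSRNOG00000014030) had 194, 168 and 208 counts in young replicates 1, 2 and 3 and 229, 75 and 150 counts in old replicates 1, 2 and 3, or 4.30, 2.79 and 4.23 CPM and 4.60, 1.44 and 2.80 CPM. Old replicate 1 was the highest of the 6 libraries and old replicate 2 the lowest, and the groups overlapped. On the log2 scale, old differed from young by -0.36 (SE 0.44, 95% interval -1.41 to 0.69, edgeR adjusted p = 0.641). It was -0.83 without old replicate 1 and -0.03 without old replicate 2.

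Krt8, the basic keratin of simple epithelia, was present at a low and even level. Krt8 (ENSRNOG00000009779) had 146, 161 and 116 counts in young replicates 1, 2 and 3 and 161, 186 and 180 counts in old replicates 1, 2 and 3. In CPM, young was at 3.23, 2.68 and 2.36 and old at 3.24, 3.58 and 3.36. The old libraries were all above the young libraries, by a margin at the closest point that is smaller than counting error, and 14.5% of all genes were likewise separated upward. The log2 fold change was 0.30 (SE 0.20, 95% interval -0.19 to 0.79, edgeR adjusted p = 0.408) and was between 0.20 and 0.43 with each library left out. Nes and Krt8 were the 2 members of 8 whose groups did not overlap, compared with 29.2% of all genes.

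**Figure D2:**
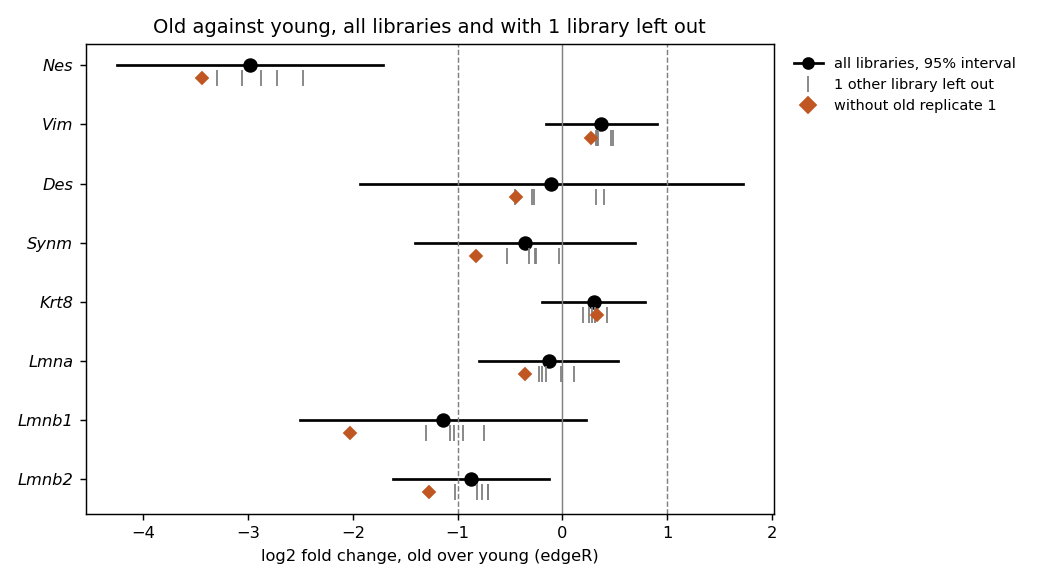
Log2 fold change of old over young for the 8 members from edgeR, with 95% intervals as black lines, dashed lines at -1 and 1, and grey ticks for fits with 1 library left out and an orange diamond for the fit without old replicate 1. The interval of Nes lies wholly below -1, and without old replicate 1 the values of Lmnb1 and Lmnb2 move to -2.03 and -1.27.

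The A-type lamin gene did not differ detectably between ages. Lmna (ENSRNOG00000019638), which encodes the lamins that stiffen the nucleus, was at 617, 556 and 736 CPM in young replicates 1, 2 and 3 and at 751, 364 and 628 CPM in old replicates 1, 2 and 3. Old replicate 2 was the lowest and old replicate 1 the highest of the 6 libraries, and the groups overlapped. The means were 637 ± 91.6 CPM in young and 581 ± 198 CPM in old (mean ± SD, n = 3 each), with a log2 fold change of -0.13 (SE 0.28, 95% interval -0.79 to 0.53, edgeR adjusted p = 0.794). Without old replicate 2 the log2 fold change was 0.11.

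The B-type lamin genes were lower in most old libraries. Lmnb1 (ENSRNOG00000013774), which encodes lamin B1, was at 44.9, 29.7 and 42.8 CPM in young replicates 1, 2 and 3 and at 34.0, 12.5 and 6.70 CPM in old replicates 1, 2 and 3. Old replicates 2 and 3 were below all young libraries, whereas old replicate 1 lay inside the young range. The means were 39.1 ± 8.24 CPM in young and 17.7 ± 14.4 CPM in old (mean ± SD, n = 3 each), and the coefficient of variation was 21.1% in young and 81.0% in old. On the log2 scale, old differed from young by -1.14 (SE 0.57, 95% interval -2.51 to 0.22, unadjusted p = 0.0873, edgeR adjusted p = 0.279), a 2.21-fold lower level in old. DESeq2 gave an adjusted p of 0.153 and limma-voom 0.173. Without old replicate 1 the log2 fold change was -2.03 (SE 0.34, edgeR adjusted p = 0.0341), and without old replicate 3 it was -0.75 (edgeR adjusted p = 0.432).

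Lmnb2 (ENSRNOG00000025742), which encodes lamin B2, was at 30.1, 20.4 and 28.5 CPM in young replicates 1, 2 and 3 and at 21.3, 10.9 and 10.95 CPM in old replicates 1, 2 and 3. As with Lmnb1, old replicate 1 lay inside the young range and the other old libraries lay below it. The means were 26.4 ± 5.20 CPM in young and 14.4 ± 6.01 CPM in old (mean ± SD, n = 3 each), 1.83-fold lower in old. The log2 fold change was -0.87 (SE 0.31, 95% interval -1.62 to -0.13, unadjusted p = 0.0275, edgeR adjusted p = 0.177), and DESeq2 gave an adjusted p of 0.0641. Without old replicate 1 it was -1.27 (SE 0.20, edgeR adjusted p = 0.0315). The genes with profiles most like Lmnb2 over the 6 libraries were Rfc2, Mcm4 and Kpna2, at root mean square differences of 0.07, 0.08 and 0.08 on the log2 scale among 11428 genes.

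The upstream windows of Lmnb1 and Lmnb2 are shown because both were lower in the same old libraries. They cover 250 bases before the RefSeq start on assembly GRCr8, read 5′ to 3′, at chr18:52373689-52373938 for Lmnb1 and chr7:9443058-9443307 for Lmnb2, each on the plus strand. Capitals mark TTTGAA and CCAAT or their reverse complements. Lmnb1 held 1 TTTGAA, found in 16.2% of the 33469 windows, and 1 CCAAT in reverse, found in 34.0%. Lmnb2 held no match to any of these, to the GC box or to the CArG box. The windows also differed in base composition, with 74.8% G or C in Lmnb1 and 49.6% in Lmnb2, compared with a median of 51.2% over all windows.
Lmnb1: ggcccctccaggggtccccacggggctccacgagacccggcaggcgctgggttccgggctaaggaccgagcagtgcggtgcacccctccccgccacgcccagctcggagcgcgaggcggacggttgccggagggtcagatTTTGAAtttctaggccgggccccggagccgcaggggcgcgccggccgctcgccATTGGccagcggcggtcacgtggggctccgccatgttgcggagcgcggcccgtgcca
Lmnb2: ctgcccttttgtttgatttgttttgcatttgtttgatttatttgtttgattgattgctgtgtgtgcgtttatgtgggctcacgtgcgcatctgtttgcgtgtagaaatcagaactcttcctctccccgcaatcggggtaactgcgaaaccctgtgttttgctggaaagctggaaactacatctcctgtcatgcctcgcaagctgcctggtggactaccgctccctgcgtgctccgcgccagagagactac

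The B-type lamins were set beside genes of cell division in the same libraries. A list of 16 proliferation markers, among them Mki67, Top2a and Cdk1, was measured in full. Its summed level was 1009, 648 and 969 CPM in young replicates 1, 2 and 3 and 702, 245 and 205 CPM in old replicates 1, 2 and 3. Every one of the 16 was lower in old (median -1.31 on the log2 scale, 0.02 over all genes), and 6 had an unadjusted p under 0.05 in edgeR, against 11.5% of all genes lower at that level. From highest to lowest, the libraries stood in the same order for the proliferation sum and for Lmnb1, namely young 1, young 3, old 1, young 2, old 2 and old 3, and Lmnb2 had this order except for the last pair. Without old replicate 1, edgeR called 13 of the 16 lower, against 3.47% of all genes. The part of cell division in the lamin values was not tested. Of 6 cell cycle inhibitors, 5 were higher in old and 4 of these had an unadjusted p under 0.05, compared with 11.2% of all genes higher at that level. Cdkn2a was not among the 4, with overlapping groups and a log2 fold change of 0.26 (edgeR adjusted p = 0.410). Cdkn2c was lower, at -0.48 on the log2 scale (edgeR adjusted p = 0.490). Cdkn1c, an inhibitor of cyclin-dependent kinases, had 4, 22 and 30 counts in the young and 8, 176 and 206 counts in the old libraries (log2 fold change 2.78, edgeR adjusted p = 0.216), and was thus high in old replicates 2 and 3 but not in old replicate 1. Without old replicate 1 its log2 fold change was 3.33 (edgeR adjusted p = 0.0473), where 5.06% of all genes were called in either direction.

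**Figure D3:**
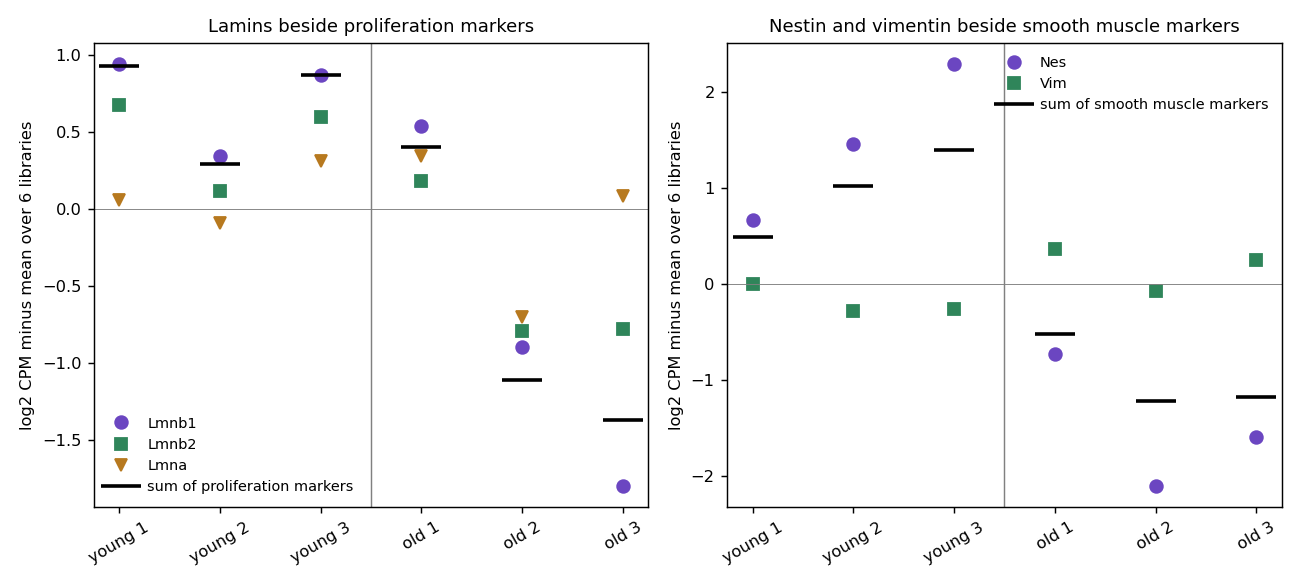
Log2 CPM of lamins with the summed proliferation markers (left) and of Nes and Vim with the summed smooth muscle markers (right), each minus its mean over the 6 libraries, for young and old replicates on the horizontal axis. Lmnb1 and Lmnb2 lie high in the young libraries and old replicate 1 and low in old replicates 2 and 3, and Nes lies high in all young and low in all old libraries.

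Nes followed another order. Its libraries ranked young 3, young 2, young 1, old 1, old 3 and old 2. The summed smooth muscle markers ranked in this order too, at 11209, 16228 and 20996 CPM in young replicates 1, 2 and 3 and 5562, 3447 and 3535 CPM in old replicates 1, 2 and 3. Acta2 and Tagln made up most of this sum, and old replicates 2 and 3 were close. Singly, Acta2, Tagln and Lmod1 had this order, whereas Myh11, Cnn1, Smtn, Myocd and Synpo2 did not. All 8 smooth muscle markers were lower in old at an unadjusted p under 0.05 (median -1.96 on the log2 scale), against 11.5% of all genes. DESeq2 called 6 lower, against 3.31% of all genes. The study itself discusses Acta2 and Myh11 from these libraries, so their direction is not independent evidence. Markers of other cell types were summed in the same way. Fibroblast markers, measured for 8 of 8 genes, summed to 262 to 731 CPM in young and 1190 to 2163 CPM in old. Skeletal muscle markers, measured for 7 of 15 genes, summed to 179 to 394 CPM in young and 40.6 to 70.5 CPM in old, while Myod1, Myog and Pax7 were not among the genes measured. Of the 7, 6 were lower in old and Tnnt3 was higher (log2 fold change 0.92, edgeR adjusted p = 0.216). Without old replicate 1 the log2 fold change of Tnnt3 was 1.23 (edgeR adjusted p = 0.0457), where 5.06% of all genes were called in either direction. Pericyte markers (4 of 7 genes) summed to 904 to 1373 CPM in young and 667 to 1520 CPM in old, and Pdgfrb made up most of this sum. Of the 4, 3 were lower in old, among them Cspg4 and Notch3, which are named after their values were seen, and 1 was higher, by 0.32 on the log2 scale. Cspg4 was at 273, 246 and 440 CPM in young replicates 1, 2 and 3 and at 163, 102 and 97.8 CPM in old replicates 1, 2 and 3 (log2 fold change -1.40, edgeR adjusted p = 0.0853, DESeq2 adjusted p = 0.000341). Notch3 differed by -2.83 on the log2 scale (edgeR adjusted p = 0.275). Without old replicate 1 the log2 fold change was -1.68 for Cspg4 and -2.41 for Notch3 (SE 1.66). In that fit it was 0.63 for Pdgfrb (edgeR adjusted p = 0.128) and 0.01 for Abcc9.

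Endothelial markers (4 of 8, without Cdh5 and Cldn5) summed to 4.01 to 13.6 CPM in young and 12.7 to 18.2 CPM in old, mesothelial and epithelial markers (2 of 8, without Epcam and Cdh1) to 2.97 to 12.5 CPM and 8.28 to 36.1 CPM, and macrophage markers (2 of 6, without Ptprc and Adgre1) to 0.407 to 2.90 CPM and 1.57 to 2.90 CPM. The part of other cells in the values of Nes, Vim and the keratins was not tested.

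Ratios of members inside a library do not depend on the normalization between libraries, and 5 were compared, since the planned ratio of Krt8 to Krt18 could not be formed. Counts are not corrected for gene length, so only the change of a ratio between libraries is read. For each 1000 counts of Vim there were 4.47, 9.41 and 16.4 counts of Nes in young replicates 1, 2 and 3 and 1.32, 0.687 and 0.784 in old replicates 1, 2 and 3. The log2 ratio of Nes to Vim differed by -3.31 in old (p = 0.10 in an exact two-sided permutation test), with separate groups. For each 1000 counts of Lmna there were 72.8, 53.4 and 58.1 counts of Lmnb1 in young and 45.2, 34.4 and 10.7 in old. These groups were also separate, old replicate 1 included, with a difference of -1.26 on the log2 scale (p = 0.10, exact permutation test). The size of this difference rests partly on old replicate 3, without which it was -0.63. A p of 0.10 is the smallest that 3 libraries against 3 can give, and both became 0.25 after Benjamini-Hochberg adjustment over the 5 ratios.

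The remaining ratios had overlapping groups. Lmnb1 and Lmnb2 kept a narrow ratio in young, at 1491, 1454 and 1500 counts of Lmnb1 for each 1000 of Lmnb2, against 1592, 1152 and 612 in old replicates 1, 2 and 3. The difference was -0.51 on the log2 scale (p = 0.40, exact permutation test), and each old value lay outside the narrow young range, with old replicate 1 above it and old replicates 2 and 3 below it. Synm to Vim differed by -0.85 (p = 0.20, exact permutation test). The log2 ratio of Des to Vim differed by -0.92 (p = 0.70, exact permutation test) and by 0.16 in the opposite direction without old replicate 3.

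**Figure D4:**
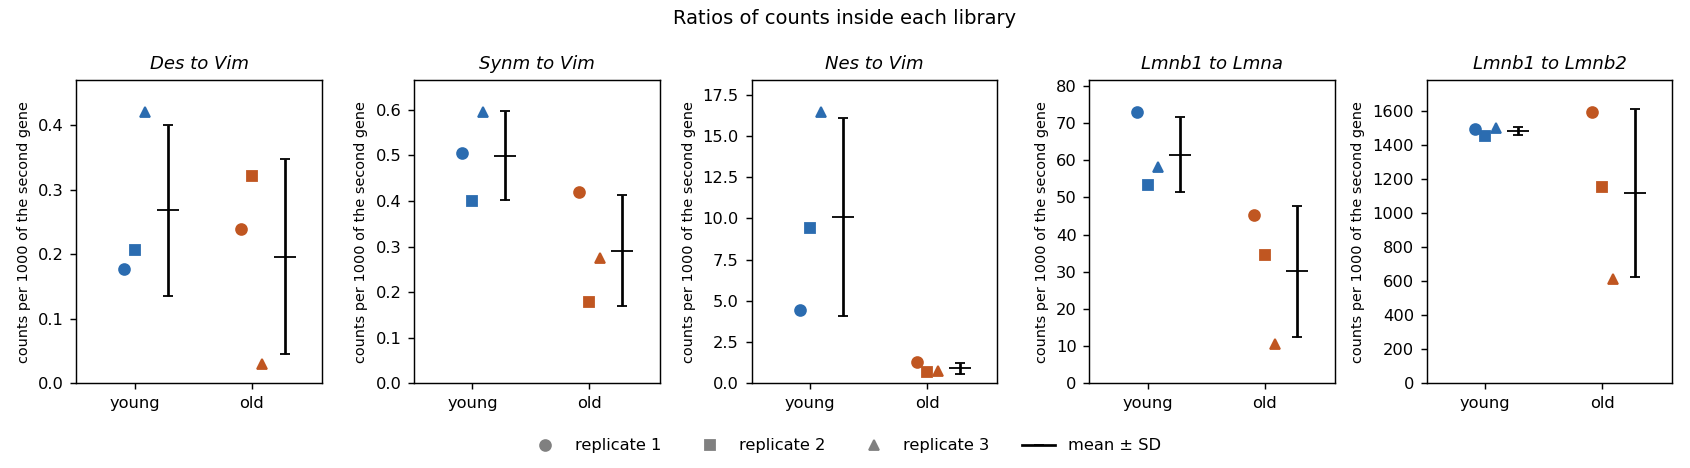
Counts of the first gene for each 1000 counts of the second gene in the same library, for 5 pairs of members, with young in blue, old in orange and the mean ± SD of 3 libraries in black. The old values of Nes to Vim and of Lmnb1 to Lmna lie below all young values, and the other pairs overlap.

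Of 27 other intermediate filament genes in a list of keratins, neurofilament and related chains, 10 were measured. Of the 10, 6 had an unadjusted p under 0.05 and all 6 were lower in old, compared with 11.5% of all genes, and the median log2 fold change was -0.77 compared with 0.02 over all genes. DESeq2 called 2 lower, Krt23 and Ina, against 3.31% of all genes. The largest difference was in Nefm, the medium neurofilament chain, which had 22, 26 and 320 counts in the young and 10, 8 and 10 counts in the old libraries and thus rested on young replicate 3 (log2 fold change -3.76, edgeR adjusted p = 0.158). Krt7 and Krt23 were chosen after their values were seen. Krt7, a keratin of simple epithelia, was at 32.4, 99.5 and 43.8 CPM in young replicates 1, 2 and 3 and at 18.9, 8.77 and 1.27 CPM in old replicates 1, 2 and 3 (log2 fold change -2.60, edgeR adjusted p = 0.177), and without old replicate 1 the log2 fold change was -3.55 (edgeR adjusted p = 0.0851). Krt23 had 113, 172 and 160 counts in young and 10, 11 and 27 counts in old (log2 fold change -3.22, edgeR adjusted p = 0.0531, 1.08e-10 from DESeq2). Without old replicate 1 edgeR called it (log2 fold change -3.00, adjusted p = 0.0306), where 3.47% of all genes were called lower. For both keratins all old libraries were below all young libraries, in contrast to Krt8.

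Linkers and chaperones of the filaments were measured for 15 of 17 genes. Of these, 4 had an unadjusted p under 0.05, each of them lower in old (list median -0.27 on the log2 scale), where 11.5% of all genes were lower at that level. DESeq2 called Cryab and Hspb1 lower, against 3.31% of all genes. Cryab, a small heat shock protein that binds desmin filaments, was at 575, 874 and 307 CPM in young replicates 1, 2 and 3 and at 214, 66.5 and 79.5 CPM in old replicates 1, 2 and 3. Its log2 fold change was -2.29 (SE 0.58, edgeR adjusted p = 0.111, 0.000467 from DESeq2), and -3.00 without old replicate 1 (edgeR adjusted p = 0.0332). In that fit 3.47% of all genes were called lower. Hspb1, another small heat shock protein of the cytoskeleton, was chosen after its values were seen, at 267 ± 35.8 CPM in young and 116 ± 20.1 CPM in old (mean ± SD, n = 3 each), with a log2 fold change of -1.21 (edgeR adjusted p = 0.0531). Without old replicate 1 it was -1.35 (edgeR adjusted p = 0.0262). Plec, the plectin that links filaments to adhesions and nucleus, was at 473 ± 64.2 CPM in young and 505 ± 91.9 CPM in old (mean ± SD, n = 3 each), with a log2 fold change of 0.09 (edgeR adjusted p = 0.768). Syne3, the nesprin that binds plectin at the nucleus, differed by 0.19 on the log2 scale (edgeR adjusted p = 0.489).

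Among 5 measured lamin processing genes of 6, the median log2 fold change was -0.01, and 1 was higher at an unadjusted p under 0.05, against 11.2% of all genes. This was Narf, which encodes a protein that binds prelamin A, with a log2 fold change of 0.62 (edgeR adjusted p = 0.134). Zmpste24, the protease that matures prelamin A, was at 88.4 ± 3.92 CPM in young and 83.8 ± 4.63 CPM in old (mean ± SD, n = 3 each), a difference of -0.08 on the log2 scale (edgeR adjusted p = 0.608). Of the partners of the lamina in the nuclear envelope, 19 of 21 genes were measured in 20 rows, since Tor1aip2 had 2. Of these rows 4 had an unadjusted p under 0.05, all lower in old, against 11.5% of all genes lower and 22.6% in either direction, and the median log2 fold change was -0.14. Emd, which encodes the inner nuclear membrane protein emerin, was at 80.9, 79.8 and 88.4 CPM in young replicates 1, 2 and 3 and at 54.0, 33.1 and 34.3 CPM in old replicates 1, 2 and 3, without overlap. Its log2 fold change was -1.04 (SE 0.20, edgeR adjusted p = 0.0743, 0.000345 from DESeq2), and -1.30 without old replicate 1 (edgeR adjusted p = 0.0262). That fit called 3.47% of all genes lower. Lbr, the receptor that holds B-type lamins at the membrane, was at 30.7 ± 2.86 CPM in young and 28.9 ± 4.93 CPM in old (mean ± SD, n = 3 each), with a log2 fold change of -0.08 (edgeR adjusted p = 0.747).

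**Figure D5:**
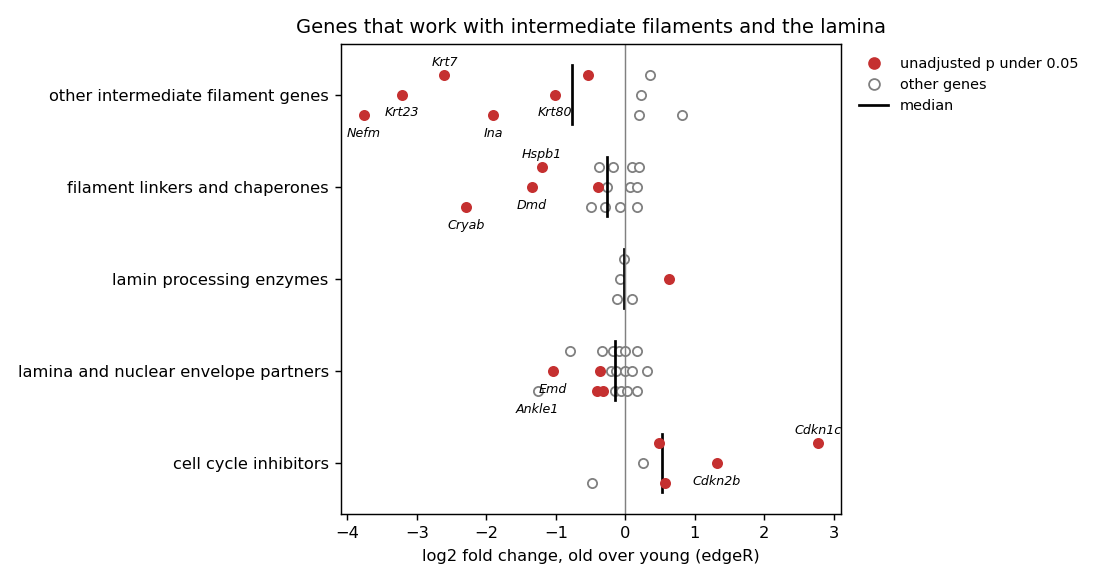
Log2 fold change of old over young for each measured gene of 5 lists, with red points at an unadjusted p under 0.05 from edgeR, open points otherwise and a black line at the list's median. The red points lie below 0 for other intermediate filament genes, linkers and nuclear envelope partners, and above 0 for Narf and the cell cycle inhibitors.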

How the data were processed

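RNA of cultured VSM cells from 3 young and 3 old rats was sequenced as stranded polyA libraries. Per the Methods and labels, the authors trimmed reads with Cutadapt 3.5 through Trim Galore 0.6.7, aligned them with STAR 2.7.10b to an earlier rat assembly than GRCr8, and counted them with featureCounts of Subread 2.0.8. The deposited values are raw counts per gene, without normalization, for genes of at least 10 counts in at least 3 libraries. Strand, mate and multi-read settings are not stated, so keratins with close copies and genes with antisense neighbours are uncertain. The total counts of every library exceed the reads per sample given in the Methods. At that depth fragments were counted more than once, whether as separate mates or as multi-mapped reads. Whether replicates were cultured on separate days is not stated.

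All 14475 genes were fitted with edgeR 4.0.16 (TMM, quasi-likelihood test, no covariates, young as reference) in R 4.3.3. DESeq2 1.42.0 and limma 3.58.1 (voom) were alternatives, with other normalizations, filters, halved counts, a replicate block and each library left out. The authors used DESeq2 1.46.0. Standard errors are the absolute log2 fold change over the square root of F. Ratios of counts were compared with exact permutation tests in SciPy 1.17.1. The edgeR, DESeq2 and voom steps were run on simulated counts with known changes. That run is not read as a check of the calls in these libraries. Promoter windows came from RefSeq, where 9 of 9 symbols matched, and their motifs were chosen after the values were seen.

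Members and lists were chosen with earlier results of these data known. The genes named were all members, the largest change each way at an unadjusted p under 0.05 in each list, Plec, Lbr, Zmpste24 and Syne3, and, for members at that level, the 3 genes of at least 1 CPM with the nearest profile. Krt7, Krt23, Hspb1, Cspg4, Notch3, Pdgfrb, Abcc9, Tnnt3, Synpo2, Cdkn2a and Cdkn2c lie outside this rule, as do genes named only as called or by their order. These were chosen after their values were seen. For genes other than members, the fit without old replicate 1 is the only leave-one-out fit given singly. It called 5.06% of all genes, against 0.00691% with all libraries. Its adjusted p values are therefore not read as calls with all libraries. No library repeated another of its own group, as the chi-square per gene was at least 67.1, and pairs across groups were not compared. The summed level of 1 marker list is not reported here.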

Additional observations from a re-analysis of the deposited data

How the results depend on the processing

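The number of members past the thresholds was 0 in edgeR with RLE size factors, library size only, no filter, the filter of filterByExpr and halved counts, and 0 in limma-voom. It was 1 with DESeq2, 2 at an unadjusted p under 0.05 with no fold threshold, and from 0 to 3 with each library left out, with 3 only without old replicate 1. DESeq2 with 1 library left out, added after seeing the data, called 3 members without old replicate 1 and 1 member otherwise. Of the 5 lists of partner genes it called 6, 5 and 3 genes without young replicates 1, 2 and 3 and 11, 5 and 7 without old replicates 1, 2 and 3. The share of all genes called in these DESeq2 fits is not given, so their counts are not read as a result about the members or lists. The 5 lists held 10, 15, 5, 20 and 6 measured rows. Of these rows together, edgeR called 0 with all libraries, against 0.00691% of all genes, and DESeq2 called 5, against 5.56%. With each library left out edgeR called from 0 to 5, with 5 only without old replicate 1, where 5.06% of all genes were called. With the replicate number as a block, edgeR called 0 members, and the log2 fold changes were -2.97 for Nes, -1.42 for Lmnb1 and -0.93 for Lmnb2. The block changed no call of a member. Its SE was 0.57 for Nes, 0.46 for Lmnb1 and 0.20 for Lmnb2, compared with 0.53, 0.57 and 0.31 without it. Deviations from the group mean correlated over genes at 0.03, 0.26 and 0.26 for same-numbered libraries. For libraries of unlike number the correlations were between -0.40 and 0.29. Whether the numbers mark a pairing is not stated, and these few correlations cannot decide it. Over the leave-one-out fits the log2 fold change of Des was from -0.45 to 0.40 and that of Lmna from -0.36 to 0.11, with a positive sign for Des without young replicate 3 (0.32; 0.32 in DESeq2) or old replicate 3 (0.40; 0.39 in DESeq2) and for Lmna without old replicate 2 (0.11; 0.11 in DESeq2). The log2 ratio of Des to Vim was from -1.57 to 0.16. The other 6 members and 4 ratios kept their direction under every alternative run. Des, Synm and Krt8 had at most 229 counts in any library. Halving all counts left their SEs at 0.74, 0.43 and 0.20, compared with 0.76, 0.44 and 0.20. Halving rescaled each count and added no sampling error, so it cannot show whether depth limited them.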
